A study of Mus musculus with 6 samples.

Results

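The genes described here make, feed or restrain the mineral of bone and calcifying cartilage. They were chosen by name as 10 genes, *Alpl*, *Ibsp*, *Spp1*, *Bglap*, *Phex*, *Enpp1*, *Ank*, *Mgp*, *Phospho1* and *Dmp1*, and each matched 1 of the 54532 genes in the deposited count table. RNA was sequenced from 3 Gli1+ and 3 Gli1- populations, 1 library each, to compare cells that express *Gli1*, a target and effector of Hedgehog signalling, with the remaining cells of the same mice. The mice were 1 month old, on a c57BL/6 background, and carried *Gli1-CreERT2* and the reporter tdTomato (Ai9). They were taken 24 h after tamoxifen (TAM), which lets the recombinase made from the *Gli1* locus switch on the red reporter. Both populations were sorted as CD45-CD31-Ter119- cells, Gli1+ cells as tdTomato+ and Gli1- cells as tdTomato-, so the transgenes, the TAM and the removal of leukocytes, endothelial and erythroid cells were common to both. The labels call the tissue growth plate, while the methods of the study name costal cartilage. A cell that switched *Gli1* on after TAM, or whose reporter did not recombine, counts as Gli1-.

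Mineral forms when phosphate outweighs pyrophosphate, a small molecule that blocks the growth of calcium phosphate crystals. Alkaline phosphatase (*Alpl*) degrades pyrophosphate, the phosphatase PHOSPHO1 frees phosphate inside matrix vesicles, and bone sialoprotein (*Ibsp*) gives crystals a surface on which to start. Against these stand ENPP1, which makes pyrophosphate from ATP, ANK, a membrane protein needed for its appearance outside the cell, and matrix Gla protein (*Mgp*), without which cartilage and arteries calcify. In the growth plate, hypertrophic chondrocytes calcify their matrix, while the chondrocytes of younger zones and of permanent cartilage keep theirs free of mineral.

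Levels are given as counts, the reads counted on a gene in a library, and as CPM, counts relative to library size after TMM scaling for library composition. The libraries held 17114101 to 18602482 counts. *Gli1*, which drives the label, was at 4.55, 6.39 and 7.98 CPM in Gli1+ replicates 1, 2 and 3 and at 0.724, 1.26 and 2.43 CPM in Gli1- replicates 1, 2 and 3, without overlap. Gli1+ replicate 1 stood apart, with 15000 genes detected against 20666 to 23360 in the other libraries. Among genes with a mean of 5 to 25 counts in the other 5 libraries, 55.9% had no count in Gli1+ replicate 1, and the same share was 5.56% to 15.6% for each of the others. Chondrocyte markers (*Col2a1*, *Acan* and 9 others) summed to 6944 to 30960 CPM and were highest in replicate 2 of both populations, with *Col2a1* itself at 2130 to 13530 CPM. Neutrophil markers summed to 3103 CPM in Gli1- replicate 1 and to 9.40 to 72.3 CPM elsewhere, although leukocytes had been removed by the sort. The sums were 24.3 to 730 CPM for macrophage, 0 to 19.4 CPM for erythroid, 1.16 to 12.3 CPM for endothelial, 14.8 to 119 CPM for smooth muscle and 1716 to 6771 CPM for fibroblast markers. In bulk RNA, fewer cells of a type and less RNA per cell cannot be told apart.

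Compared by edgeR's quasi-likelihood test over 14801 genes that passed a filter on low counts, 0 genes (0%) passed the study's thresholds (|log2FC| above 1, adjusted p-value below 0.05). At an unadjusted p-value under 0.05, 1.43% of genes were higher and 2.04% lower in Gli1+ cells. Of the 10 mineralization genes, 6 passed the filter (*Mgp*, *Spp1*, *Ank*, *Enpp1*, *Ibsp* and *Alpl*). None of these 6 was called (0 of 6), 0 reached an unadjusted p-value under 0.05, and edgeR's adjusted p-value was 0.9999 for each. The other 4, *Bglap*, *Phex*, *Phospho1* and *Dmp1*, had too few counts for the test. Of the 10, *Mgp* alone was called in any alternative fit. It was lower in Gli1+ cells than in Gli1- cells in 3 of 3 pairs of equal replicate number and was called when the replicate number entered DESeq2's test as a block.

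Levels differ between genes by several orders of magnitude. To compare genes, CPM was divided by the gene length given in the table, in kilobases. On this scale the mean over the 6 libraries was 3929 for *Mgp*, 1989 for *Spp1*, 116 for *Ank*, 45.5 for *Enpp1*, 11.7 for *Ibsp* and 0.963 for *Alpl*. The remaining 4 genes lay between 0.049 for *Phex* and 0.665 for *Bglap*. The order from *Spp1* down to *Alpl* was the same in 6 of 6 libraries. *Mgp* exceeded *Spp1* in 4 of 6, and *Alpl* exceeded *Bglap* in 3 of 6, so those neighbours did not hold a fixed order. Thus the 3 inhibitors of the contrast, *Mgp*, *Ank* and *Enpp1*, stood above the 3 promoters, *Ibsp*, *Alpl* and *Phospho1*, on average in these cells.

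**Figure D1:**
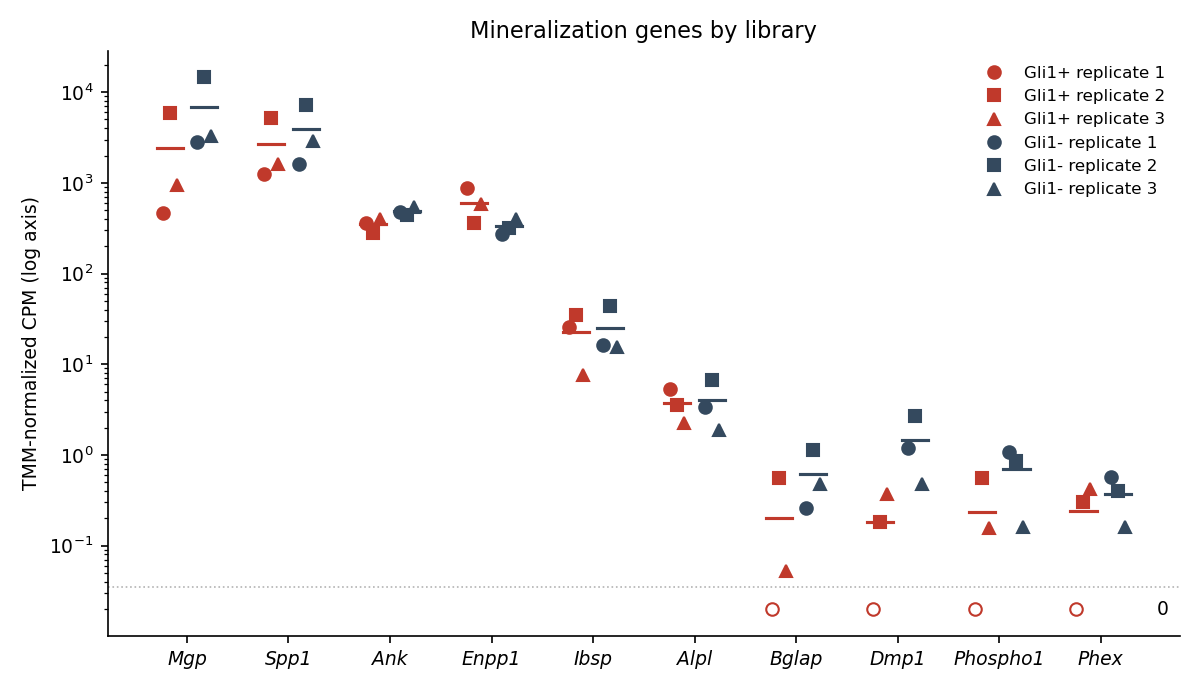
TMM-normalized CPM (log axis) of the 10 mineralization genes in each library, ordered by mean CPM per kilobase, with Gli1+ in red, Gli1- in dark blue, a symbol for each replicate number and a line at each population's mean. Open symbols below the dotted line mark libraries with 0 counts. *Mgp* and *Spp1* were highest in replicate 2 of both populations, *Ank* was lower in every Gli1+ library than in every Gli1- library, and *Bglap*, *Dmp1*, *Phospho1* and *Phex* were at 0 in Gli1+ replicate 1.

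Among the inhibitors, *Mgp* (ENSMUSG00000030218, chromosome 6, 136872435 to 136875823, minus strand, GRCm38) encodes a secreted Gla protein that binds calcium. Its level was 469, 5830 and 950 CPM in Gli1+ replicates 1, 2 and 3 and 2846, 14580 and 3308 CPM in Gli1- replicates 1, 2 and 3. Replicate 2 was the highest in each population, and Gli1+ replicate 2 lay above the 2 lower Gli1- libraries, so the populations overlapped. By level, *Mgp* ranked 287, 11 and 95 among all genes in Gli1+ replicates 1, 2 and 3 and 17, 4 and 13 in Gli1- replicates 1, 2 and 3. The means were 2417 ± 2966 CPM for Gli1+ and 6911 ± 6645 CPM for Gli1- cells (SD, n = 3 each). The log2FC was -1.52 (standard error, SE, 1.08, edgeR, unadjusted p = 0.196), and the 2-sided exact permutation test of CPM gave p = 0.5, where 0.1 is the smallest that 3 libraries against 3 allow. Without Gli1- replicate 2 the log2FC was -0.37, and without Gli1+ replicate 2 it was -3.30.

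Within replicate numbers the spread of *Mgp* was smaller. The log2 difference of the Gli1+ from the Gli1- library was -2.60, -1.32 and -1.80 in replicates 1, 2 and 3. With the replicate number as a block, edgeR gave a log2FC of -1.91 (SE 0.34, unadjusted p = 0.00192, adjusted p = 0.342), which did not pass. DESeq2's Wald test with the same block gave -1.93 (SE 0.38, adjusted p = 8.5e-05) and called *Mgp*. That test called 0.794% of genes higher and 2.32% lower in Gli1+ cells, and of the 6 mineralization genes it could test it called *Mgp* alone. Without both libraries of replicate 1 it gave -1.56 (adjusted p = 9.8e-11, against 9.8e-11 to 1.0 over the alternatives that gave *Mgp* an adjusted p-value). That fit used replicates 2 and 3 alone, which leave little to estimate a gene's own spread from, and it called 725 of 12653 genes. Its small p-value is therefore not stronger support. With the block and all libraries, limma-voom's moderated test gave -1.91 (adjusted p = 0.149) and did not call *Mgp*. The quasi-likelihood test of edgeR with the block and no filter did (adjusted p = 0.041). DESeq2 without the block gave *Mgp* a log2FC of -1.53 and no p-value.

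Markers of cell types moved with *Mgp* in part. The sum of the 11 chondrocyte markers was 8635, 23010 and 8995 CPM in Gli1+ replicates 1, 2 and 3 and 7955, 30960 and 6944 CPM in Gli1- replicates 1, 2 and 3. Without *Acan* it was 6093, 22340 and 6375 CPM against 6999, 30370 and 5456 CPM, so the direction in replicate 1 rested on that gene. Of the 11 markers 7 had a negative log2FC by edgeR without the block. DESeq2 with the block, which called *Mgp*, called 2.32% of all genes lower and 0.794% higher in Gli1+ cells. Of the chondrocyte markers it called *Comp* (adjusted p = 0.000708) and *Matn1* (adjusted p = 0.0271) lower. It also called 3 of the 7 fibroblast markers lower, *Pdgfra* (adjusted p = 6.0e-05), *Col3a1* (adjusted p = 0.00725) and *Dpt* (adjusted p = 0.0218), and 1 of the 6 smooth muscle markers, *Cnn1*, higher. With edgeR and the same block, 0 of these genes passed. Apart from *Pdgfra* and *Cnn1*, they were named after their values were seen. The chondrocyte markers did not move together in DESeq2 with the block. Its log2FC was positive for *Col2a1* (0.09), *Acan* (0.78), *Col9a1* (0.46), *Col11a1* (0.70), *Hapln1* (0.79) and *Matn3* (0.22), and negative for the rest. For the fibroblast markers it did not call, the same fit gave -0.82 for *Prrx1*, -0.15 for *Dcn*, -0.06 for *Lum* and 0.74 for *Thy1*. The part of cell composition in the level of *Mgp* was not tested.

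*Enpp1* (ENSMUSG00000037370, chromosome 10, 24637914 to 24712159, minus strand), the source of extracellular pyrophosphate, was the only tested gene of the group with a positive log2FC. Its level was 869, 357 and 579 CPM in Gli1+ replicates 1, 2 and 3 and 275, 316 and 403 CPM in Gli1- replicates 1, 2 and 3. Gli1+ replicates 1 and 3 lay above all Gli1- libraries, and replicate 2 lay below Gli1- replicate 3. The means were 601 ± 257 CPM and 331 ± 65.3 CPM (SD, n = 3 each), and the log2FC was 0.86 (SE 0.48, edgeR, unadjusted p = 0.111). Within pairs the Gli1+ library was above in 3 of 3, by 1.66, 0.18 and 0.52 on the log2 scale. The pair of replicate 2 thus differed little. Without Gli1+ replicate 1, the library with few genes detected, the log2FC of *Enpp1* was 0.48. With the block the unadjusted p-value was 0.0842, and no fit called this gene.

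*Ank* (ENSMUSG00000022265, chromosome 15, 27466677 to 27594909, plus strand), which is needed for ATP and pyrophosphate to leave the cell, had a log2FC of the other sign. Its level was 363, 281 and 405 CPM in Gli1+ replicates 1, 2 and 3 and 477, 440 and 538 CPM in Gli1- replicates 1, 2 and 3. Each Gli1+ library lay below each Gli1- library (p = 0.1 in the 2-sided exact permutation test, its lower limit here), as was so for 4.45% of all genes tested, while 4.04% did not overlap in the other direction. The means were 350 ± 63.2 CPM and 485 ± 49.4 CPM (SD, n = 3 each), and the log2FC was -0.47 (SE 0.40, edgeR, unadjusted p = 0.275). Leaving out single libraries gave -0.60 to -0.35. Replicate 2, the highest for *Mgp*, was the lowest for *Ank* in both populations. The gene *Otulin* overlaps *Ank* on the other strand, and the use of strand in counting is not given in the sources used here.

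The ratio of *Enpp1* to *Ank* within a library does not depend on library scaling. On the log2 scale it was 1.26, 0.35 and 0.52 in Gli1+ replicates 1, 2 and 3 and -0.80, -0.48 and -0.42 in Gli1- replicates 1, 2 and 3. Reads on *Enpp1* outnumbered those on *Ank* in every Gli1+ library, and the reverse held in every Gli1- library. The mean was 0.71 ± 0.48 in Gli1+ cells and -0.56 ± 0.20 in Gli1- cells (SD, n = 3 each), a difference of 1.27. This ratio was formed after the values of both genes had been seen and was not tested. Because *Enpp1* is the longer gene, *Ank* was the higher of the pair per kilobase in 6 of 6 libraries.

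**Figure D2:**
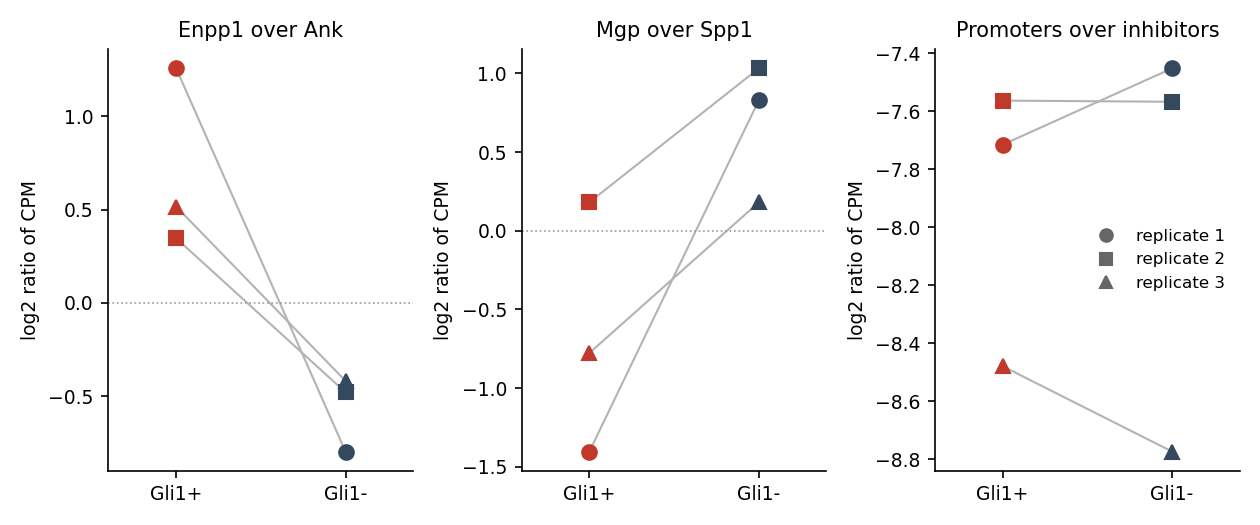
Log2 ratios of CPM within each library, with grey lines joining the populations of the same replicate number. *Enpp1* over *Ank* was above 0 in the 3 Gli1+ libraries (0.35 to 1.26) and below 0 in the 3 Gli1- libraries (-0.80 to -0.42), *Mgp* over *Spp1* was lower in Gli1+ cells in each pair, and the mean of the promoters *Alpl*, *Phospho1* and *Ibsp* over that of the inhibitors *Mgp*, *Enpp1* and *Ank* differed by 0.01 between the population means.

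The promoters of *Enpp1* and *Ank* are shown because these genes of the pyrophosphate pathway had log2FC values of opposite sign. They are the 250 bases before the RefSeq start (GRCm38.p6, read 5′ to 3′ on the gene's strand). Capitals mark the core motif TGTGGT of RUNX factors, which drive bone and hypertrophic cartilage genes, on either strand (ACCACA on the other). The *Enpp1* promoter lies at chr10:24712160-24712409 on the minus strand and the *Ank* promoter at chr15:27466427-27466676 on the plus strand.
Enpp1: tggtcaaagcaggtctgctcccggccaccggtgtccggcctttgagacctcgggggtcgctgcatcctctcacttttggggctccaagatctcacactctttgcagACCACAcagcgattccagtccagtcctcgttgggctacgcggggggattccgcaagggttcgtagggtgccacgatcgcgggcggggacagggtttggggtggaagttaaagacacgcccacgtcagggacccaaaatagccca
Ank: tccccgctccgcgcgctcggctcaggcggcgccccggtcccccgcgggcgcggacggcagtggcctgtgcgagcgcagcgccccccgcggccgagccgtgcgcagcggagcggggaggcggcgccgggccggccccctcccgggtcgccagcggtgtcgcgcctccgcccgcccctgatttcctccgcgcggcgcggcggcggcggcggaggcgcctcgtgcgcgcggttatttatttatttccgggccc
The *Ank* window held 81.2% G and C and 49 CpG dinucleotides, and that of *Enpp1* 61.2% and 17, where the medians over 32851 promoters were 52.4% and 6. A RUNX core was found in the *Enpp1* window and not in that of *Ank*, and 14.0% of all promoters held one. Of the 10 genes, 9 had a promoter in the table (*Mgp* is the missing entry), and 4 of these 9, *Enpp1*, *Spp1*, *Dmp1* and *Bglap*, held a RUNX core in the promoter nearest the deposited start. The motif TGGGTGGTC, bound by GLI factors, was in 0.225% of all promoters on either strand and in 0 of the 9. A match of letters is a description and not a site, and its absence says nothing of the factor.

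Of the genes that favour mineral, *Ibsp* (ENSMUSG00000029306, chromosome 5, 104299171 to 104311469, plus strand) was at 25.8, 35.3 and 7.56 CPM in Gli1+ replicates 1, 2 and 3 and at 16.3, 44.2 and 15.6 CPM in Gli1- replicates 1, 2 and 3. Replicate 2 was again the highest in both populations. The log2FC of -0.15 was smaller than its SE of 0.67 (edgeR, unadjusted p = 0.829), and the pairs differed in direction, with 1 higher and 2 lower in Gli1+ cells.

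*Alpl* (ENSMUSG00000028766, chromosome 4, 137741733 to 137796384, minus strand), the phosphatase that defines mineralizing cells, was scarce. The Gli1+ libraries held 102, 58 and 43 counts, or 5.40, 3.56 and 2.26 CPM, and the Gli1- libraries 66, 102 and 36 counts, or 3.41, 6.76 and 1.90 CPM, for replicates 1, 2 and 3. The populations overlapped, with means of 3.74 ± 1.58 and 4.03 ± 2.49 CPM (SD, n = 3 each). The log2FC was -0.11 (SE 0.69, edgeR, unadjusted p = 0.883). For *Alpl* and *Ibsp* the sign of the log2FC changed when Gli1+ replicate 3 or Gli1- replicate 2 was left out.

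The third promoter, *Phospho1* (ENSMUSG00000050860, chromosome 11, 95824499 to 95832140, plus strand), held 0, 9 and 3 counts in Gli1+ replicates 1, 2 and 3 and 21, 13 and 3 counts in Gli1- replicates 1, 2 and 3. It is overlapped by *Zfp652* on the same strand, a gene with 4233 counts in all, so single reads may be shared. The populations met in replicate 3, where both libraries held 3 counts. The 2-sided exact permutation test gave p = 0.2.

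Set against each other, promoters and inhibitors gave nearly the same mean contrast in both populations. The mean log2 CPM of *Alpl*, *Phospho1* and *Ibsp* minus that of *Mgp*, *Enpp1* and *Ank* was -7.72, -7.56 and -8.48 in Gli1+ replicates 1, 2 and 3 and -7.45, -7.57 and -8.77 in Gli1- replicates 1, 2 and 3. The means were -7.92 ± 0.49 and -7.93 ± 0.73 (SD, n = 3 each), and their difference of 0.01 was smaller than the spread between libraries. The mean of the promoters was lower in Gli1+ cells by a log2 difference of -0.52 and that of the inhibitors by -0.54. Averaged over pairs, the log2 difference was -0.01 for *Alpl*, -0.23 for *Ibsp* and -1.33 for *Phospho1*, so most of the promoters' difference came from *Phospho1*, whose value in Gli1+ replicate 1 (0 counts) is set by the prior count. With a prior count of 0.5 in place of 2, the contrast moved from 0.01 to -0.21. The inhibitors' mean joins *Mgp* and *Ank*, with negative log2FC values, to *Enpp1*, with a positive one. Over the alternatives the difference of promoters and inhibitors lay between -0.48 and 0.29.

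*Spp1*, *Ibsp* and *Dmp1* encode acidic phosphoproteins of bone and dentine and lie in a row on the plus strand of chromosome 5 with *Dspp* and *Mepe*. In this order along the chromosome, the 6 libraries together held 0 counts of *Dspp*, 83 of *Dmp1*, 2483 of *Ibsp*, 15 of *Mepe* and 331905 of *Spp1*. Neighbours in this cluster thus ranged from 0 counts, which allows up to 3, to a very abundant message. *Spp1* (ENSMUSG00000029304, 104435118 to 104441050) encodes osteopontin, made by hypertrophic chondrocytes, osteoblasts and osteoclasts, which binds mineral and slows crystal growth. An unnamed gene model with 468 counts in all (*Gm42793*) overlaps it on the same strand.

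*Spp1* was at 1239, 5143 and 1628 CPM in Gli1+ replicates 1, 2 and 3 and at 1603, 7133 and 2919 CPM in Gli1- replicates 1, 2 and 3. The populations overlapped, and replicate 2 was the highest in both, as for *Mgp*. Within pairs the Gli1+ library was lower in 3 of 3, with log2 differences of -0.37, -0.47 and -0.84. The log2FC was -0.54 (SE 0.79, edgeR, unadjusted p = 0.511), and with the block -0.56 (SE 0.25, unadjusted p = 0.0736). Without Gli1- replicate 2 the log2FC without the block was 0.22. DESeq2's Wald test with the block but without replicate 1 gave *Spp1* a log2FC of -0.66 (adjusted p = 0.025). *Spp1* was not called there because |log2FC| was not above 1, and that fit used replicates 2 and 3 alone. *Mgp* differed more than *Spp1* within each pair, so the log2 ratio of *Mgp* to *Spp1* was -1.40, 0.18 and -0.78 in Gli1+ replicates 1, 2 and 3 against 0.83, 1.03 and 0.18 in Gli1- replicates 1, 2 and 3.

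*Dmp1* (ENSMUSG00000029307, 104202613 to 104214102) encodes a matrix protein of osteocytes that promotes mineralization and keeps phosphate in the body. The libraries held 0, 3 and 7 counts in Gli1+ replicates 1, 2 and 3 and 23, 41 and 9 counts in Gli1- replicates 1, 2 and 3. Every Gli1+ value lay below every Gli1- value, at 0 to 0.368 CPM against 0.476 to 2.72 CPM (p = 0.1 in the 2-sided exact permutation test, its lower limit here). Among all genes tested, which do not include *Dmp1*, 4.45% were lower in Gli1+ cells without overlap. The 0 came from Gli1+ replicate 1, where 55.9% of genes with a mean of 5 to 25 counts in the other libraries had no count. In replicate 3 the populations differed by 2 counts, at 7 and 9. Without a filter on low counts, edgeR gave a log2FC of -2.95 (SE 1.5, unadjusted p = 0.0494, adjusted p = 0.925). *Dmp1* was not called in any fit that gave it an adjusted p-value.

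The windows before *Spp1* (chr5:104434861-104435110, plus strand, with the RefSeq start at -7 bases from the deposited one) and *Dmp1* (chr5:104202367-104202616, plus strand, with it at 4 bases) are shown because these windows of the cluster held the RUNX core, in capitals.
Spp1: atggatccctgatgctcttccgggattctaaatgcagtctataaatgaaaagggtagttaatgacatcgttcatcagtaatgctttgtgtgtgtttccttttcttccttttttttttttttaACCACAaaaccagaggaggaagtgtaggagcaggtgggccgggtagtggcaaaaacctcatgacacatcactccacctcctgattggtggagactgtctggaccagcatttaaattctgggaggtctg
Dmp1: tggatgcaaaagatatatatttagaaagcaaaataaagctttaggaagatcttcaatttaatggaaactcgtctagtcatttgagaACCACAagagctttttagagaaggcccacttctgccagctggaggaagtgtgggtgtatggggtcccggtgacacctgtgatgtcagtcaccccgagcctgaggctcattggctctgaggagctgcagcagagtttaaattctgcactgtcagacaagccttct
They held 43.6% and 45.6% G and C and 3 CpG dinucleotides each, fewer than the windows of *Enpp1* and *Ank*. Counted from the RefSeq start, the core began at base -128 in *Spp1* and at base -164 in *Dmp1*. The window of *Ibsp*, in the same cluster, held no RUNX core. Nor did the windows before the further RefSeq starts of *Spp1* (at 1074 bases from the deposited one) and *Dmp1* (at -5038 bases).

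*Bglap* and *Phex*, which osteoblasts and osteocytes express, were close to the limit of detection. *Bglap* (ENSMUSG00000074483, chromosome 3, 88383501 to 88384464, minus strand), which encodes osteocalcin, held 0, 9 and 1 counts in Gli1+ replicates 1, 2 and 3 and 5, 17 and 9 counts in Gli1- replicates 1, 2 and 3. The Gli1+ library was below its Gli1- pair in 3 of 3, and the 2-sided exact permutation test gave p = 0.3. Its near-identical neighbours can share reads with it, *Bglap2* with 0, 20 and 1 counts in Gli1+ and 9, 57 and 2 in Gli1- replicates 1, 2 and 3, and *Bglap3* with 11 counts in all Gli1+ and 1 in all Gli1- libraries. Which of the 3 copies these reads came from is therefore uncertain.

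*Phex* (ENSMUSG00000057457, chromosome X, 157162075 to 157415312, minus strand), a membrane peptidase whose loss causes phosphate wasting, held 0, 5 and 8 counts in Gli1+ replicates 1, 2 and 3 and 11, 6 and 3 counts in Gli1- replicates 1, 2 and 3. The pairs disagreed in direction, and the 2-sided exact permutation test gave p = 0.5. The 4 scarce genes together held 0, 26 and 19 counts in Gli1+ replicates 1, 2 and 3 and 60, 77 and 24 counts in Gli1- replicates 1, 2 and 3. The exact Poisson 95% intervals, which cover counting error only, were 0 to 3.69, 17 to 38.1 and 11.4 to 29.7 counts in Gli1+ cells and 45.8 to 77.2, 60.8 to 96.2 and 15.4 to 35.7 counts in Gli1- cells. The intervals of the replicate 3 libraries overlapped. In Gli1+ replicate 1 all 4 were at 0, a library in which most genes of such depth were at 0. The part of that library's depth of detection in these values was not tested.

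**Figure D3:**
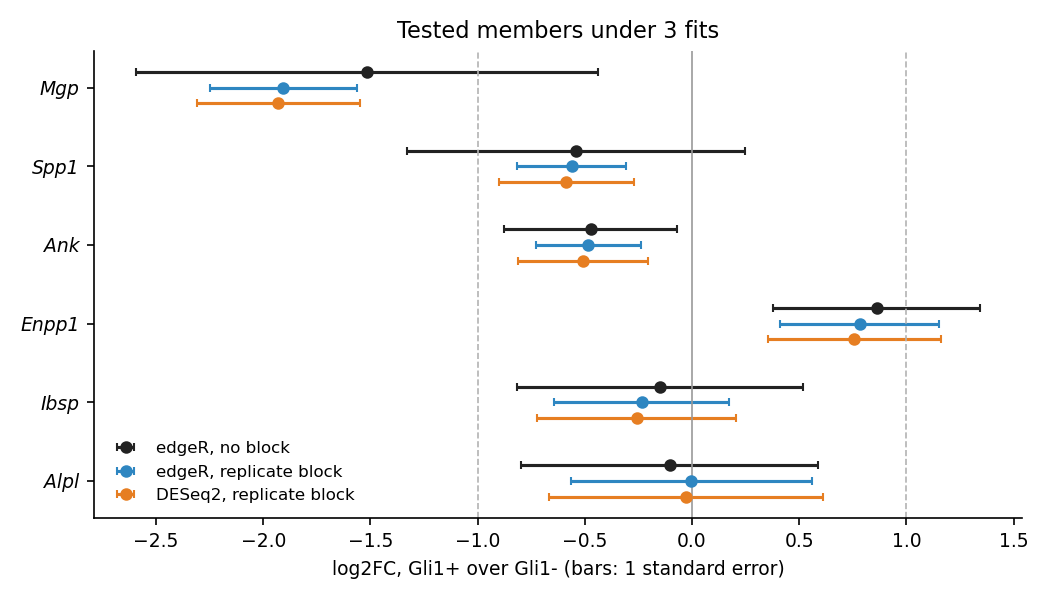
Log2FC of Gli1+ over Gli1- cells for the 6 tested genes (bars, 1 standard error; dashed lines, log2FC of -1 and 1) from edgeR without the replicate block, edgeR with it and DESeq2 with it. *Mgp* lay below -1 in the 3 fits, at -1.52, -1.91 and -1.93, with a smaller error within replicate numbers. *Enpp1* was the only gene above 0. The bars of *Alpl* and *Ibsp* crossed 0 in the 3 fits, and that of *Spp1* did so without the block.

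Within pairs, 5 of the 10 genes (*Mgp*, *Spp1*, *Ank*, *Bglap* and *Dmp1*) were lower in Gli1+ cells in 3 of 3. *Phospho1* was lower in 2 and had equal counts in the other, 1 (*Enpp1*) was higher in 3 of 3, and *Alpl*, *Ibsp* and *Phex* were mixed. Of the 6 genes tested, 3 were lower in 3 of 3. Over all 14801 genes tested, 19.8% were lower and 17.6% higher in 3 of 3 pairs. The median log2FC of the 6 tested genes was -0.31, and that of all genes was 0.0013.

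Other genes of the pathway were read from 3 lists. Vesicle, phosphate and pyrophosphate genes numbered 20, of which 18 passed the filter, 9 with a positive and 9 with a negative log2FC (median -0.03), and 0 were called. The most abundant per kilobase were the annexins of matrix vesicles. *Anxa5* was at 788 ± 368 CPM in Gli1+ against 927 ± 379 CPM in Gli1- cells, and *Anxa2* at 502 ± 269 and 649 ± 296 CPM (SD, n = 3 each). *Abcc6*, a transporter whose release of ATP feeds ENPP1, was the member of the list with an unadjusted p-value under 0.05 (edgeR's quasi-likelihood test, adjusted p = 0.9999). It held 0, 1 and 3 counts in the Gli1+ libraries and 10, 12 and 17 in the Gli1- libraries for replicates 1, 2 and 3. Gli1+ cells were thus at or under 3 counts, and this gene passed the filter through its Gli1- libraries.

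The list of Gla proteins and other proteins of mineral-binding matrix held 16 genes, of which 11 passed the filter, 0 with a positive and 11 with a negative log2FC (median -0.91). Over all 14801 genes tested, 7388 had a negative log2FC. The filter left out scarce genes of both signs. Without it, edgeR's log2FC was 3.02 for *Bglap3*, 0.75 for *Ahsg*, 0.60 for *Mepe* and -1.75 for *Bglap2*, while *Dspp* had 0 counts. By edgeR 0 were called, and an unadjusted p-value under 0.05 was reached by 3 genes, all lower in Gli1+ cells, *Omd*, *Chad* and *Fetub*. DESeq2 with the replicate block called these 3 genes lower and 0 higher, where it called 2.32% of all genes lower. With edgeR and the same block 0 of the 3 passed (adjusted p = 0.350 for *Chad*, 0.440 for *Omd* and 0.456 for *Fetub*). *Chad*, chondroadherin, a matrix protein of cartilage to which chondrocytes attach, was at 1280, 950 and 495 CPM in Gli1+ replicates 1, 2 and 3 and at 2761, 5193 and 1747 CPM in Gli1- replicates 1, 2 and 3. Its populations did not overlap, and the log2FC was -1.83 (SE 0.63, edgeR, unadjusted p = 0.0198; DESeq2 with the block, adjusted p = 0.000313). *Omd*, osteomodulin, a keratan sulfate proteoglycan of mineralized tissue, was at 30.8, 47.6 and 14.1 CPM in Gli1+ and 47.5, 365 and 177 CPM in Gli1- replicates 1, 2 and 3. Its log2FC was -2.67 (SE 0.78, edgeR, unadjusted p = 0.00901; DESeq2 with the block, adjusted p = 0.00171). Gli1- replicate 1 lay just under Gli1+ replicate 2, and the other 2 Gli1- libraries lay above all Gli1+ libraries.

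*Fetub*, the liver-secreted fetuin-B, held 0, 21 and 8 counts in Gli1+ and 60, 173 and 43 in Gli1- replicates 1, 2 and 3 (DESeq2 with the block, adjusted p = 0.00622). Like *Abcc6*, it passed the filter through its Gli1- libraries, so neither its call nor its negative log2FC is support for a difference of the list. *Sparc*, osteonectin, was the most abundant of the list, at 3640, 15910 and 2073 CPM in Gli1+ and 3590, 33950 and 3078 CPM in Gli1- replicates 1, 2 and 3, and did not pass (log2FC -0.91, SE 1.15). *Sparc* was highest in replicate 2 of both populations, as *Mgp*, *Spp1* and the chondrocyte markers were.

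The 12 regulators known to act on these genes all passed the filter, 7 with a positive and 5 with a negative log2FC (median 0.31), and 0 were called. *Msx2*, a homeobox factor of osteogenic cells, was at 3.60, 24.2 and 5.88 CPM in Gli1+ and 1.76, 4.31 and 2.43 CPM in Gli1- replicates 1, 2 and 3. Gli1+ cells had more of it in 3 of 3 pairs, with a log2FC of 1.99 (SE 0.82, edgeR, unadjusted p = 0.042), and DESeq2 with the block did not call it (adjusted p = 0.1003). The most abundant regulators per kilobase were *Atf4* at 1318 ± 1060 CPM in Gli1+ against 1605 ± 673 CPM in Gli1- cells and *Sox9* at 311 ± 137 and 453 ± 112 CPM (SD, n = 3 each). The log2FC was -0.28 (SE 0.74) for *Atf4* and -0.54 (SE 0.47) for *Sox9*. *Runx2* and *Runx3* are described with these lists because the windows above were searched for a RUNX core, and *Sp7* as a further factor of bone formation. *Runx3* was at 81.2, 17.9 and 66.1 CPM in Gli1+ and 41.2, 9.48 and 25.8 CPM in Gli1- replicates 1, 2 and 3. The populations overlapped, with the Gli1+ library above in 3 of 3 pairs. Its log2FC was 1.11 (SE 0.70, edgeR, unadjusted p = 0.149), and DESeq2 with the block did not call it (adjusted p = 0.0646). *Runx2* was at 19.1, 34.6 and 28.2 CPM in Gli1+ and 12.8, 19.6 and 22.8 CPM in Gli1- replicates 1, 2 and 3, with a log2FC of 0.57 (SE 0.44, edgeR, unadjusted p = 0.230). *Sp7* was at 5.08, 8.72 and 9.56 CPM in Gli1+ and 0.672, 3.78 and 3.28 CPM in Gli1- replicates 1, 2 and 3, without overlap, and did not pass (edgeR, unadjusted p = 0.0621; log2FC 1.60, SE 0.74). *Runx2*, *Runx3* and *Sp7* were chosen after their values were seen.

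**Figure D4:**
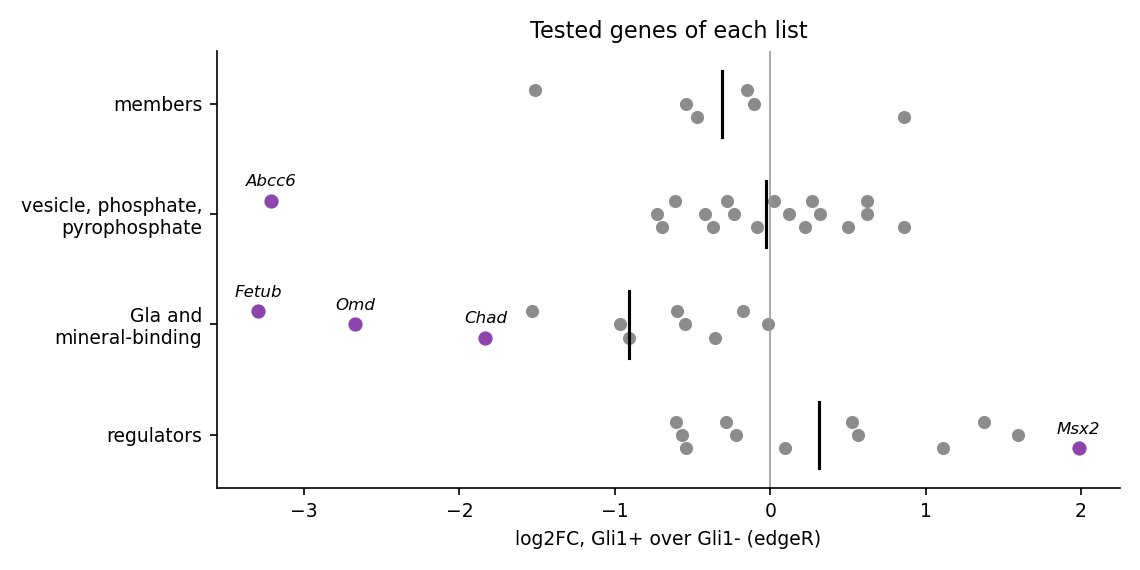
Log2FC (edgeR, no block) of each tested gene of the 6 mineralization genes and of the 3 pathway lists, with a black line at each list's median (-0.31, -0.03, -0.91 and 0.31 from top to bottom). Purple marks an unadjusted p-value under 0.05, which 5 genes reached, and the 11 mineral-binding proteins that passed the filter all lay below 0.

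The markers of hypertrophic chondrocytes, the cells that mineralize cartilage, were split. *Mmp13*, the collagenase of the late hypertrophic zone and of bone, was at 5328, 2861 and 4859 CPM in Gli1+ and 457, 592 and 607 CPM in Gli1- replicates 1, 2 and 3. Its log2FC was 2.98 (SE 0.54, edgeR, unadjusted p = 0.000527; DESeq2 with the block, adjusted p = 2.7e-11, called higher). *Col10a1*, the collagen that defines the zone, a gene singled out after its values were seen, was at 34.6, 285 and 72.0 CPM in Gli1+ and 161, 1781 and 210 CPM in Gli1- replicates 1, 2 and 3. Gli1+ libraries lay below their pairs in 3 of 3, with a log2FC of -2.46 (SE 1.13, edgeR, unadjusted p = 0.0612), and DESeq2 with the block called it lower (adjusted p = 1.5e-06). With edgeR and the same block neither gene passed (adjusted p = 0.307 for each). Of the 6 hypertrophic markers 3 had a positive and 3 a negative log2FC, and *Spp1*, itself 1 of the 10 mineralization genes, is among the latter 3.

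Markers of osteoblasts and osteocytes, the other makers of mineral, summed to 564 to 1088 CPM in Gli1+ against 463 to 2747 CPM in Gli1- cells. Of the 10, 5 passed the filter, and 0 were called by edgeR or by DESeq2 with the block. *Col1a2* was at 279 ± 232 CPM in Gli1+ against 788 ± 960 CPM in Gli1- cells (SD, n = 3 each), with the highest value in Gli1- replicate 2, and *Fam20c*, a kinase of secreted mineral-binding proteins, at 346 ± 154 and 245 ± 49.7 CPM. Of the 5 tested, 3 had a positive log2FC (*Sp7*, *Fam20c* and *Smpd3*) and 2 a negative one, with a median of 0.22. *Dmp1*, *Bglap*, *Bglap2* and *Ibsp* were highest in Gli1- replicate 2. Osteoclast markers summed to 459 CPM in Gli1- replicate 1 and to 57.8 to 153 CPM elsewhere. *Mmp9*, which neutrophils also express, supplied 399 CPM of the first sum, in the library with the high neutrophil markers. Without *Mmp9* the sums were 44.5, 92.7 and 101 CPM in Gli1+ and 60.1, 149 and 56.0 CPM in Gli1- replicates 1, 2 and 3. The part of these cells in the levels of the mineralization genes was not tested.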

How the data were processed

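Sequencing and upstream analysis were done for the study by Novogene, from poly-A RNA. The submitters' processing notes name HISAT2 2.0.5, featureCounts 1.5.0-p3 and mm10, and the annotation and the use of strand are not given in the sources used here. The authors deposited raw counts per gene, whole reads per library with no normalization and no pooling. All 10 genes have the coordinates of GENCODE M21 (GRCm38), the same build.

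Counts were filtered with filterByExpr (minimum count of 10), scaled by TMM and tested with edgeR 4.0.16 (quasi-likelihood test, R 4.3.3), with Benjamini-Hochberg adjustment over 14801 genes. CPM on the log2 scale took a prior count of 2. Alternatives were DESeq2 1.42.0, limma-voom (limma 3.58.1), other scalings and filters, the replicate block and each library left out (46 set at the start, 5 added after seeing the data, among them DESeq2 with the block but without replicate 1). Members and lists were chosen with earlier results of these data known. The text names all members and, of each list, the 2 highest per kilobase and those at an unadjusted p-value under 0.05, and says so where another gene was chosen after its values were seen. Of the marker lists only the sums and the members needed beside a result are given. The edgeR test without the block was checked on simulated counts, and no such check is given for the fits with the block.

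The libraries held 17114101 to 18602482 counts. The study calls the replicates biological and took both populations from the same mice. Across genes, libraries of equal number deviated together from the means of their populations (correlations of 0.223, 0.720 and 0.471), and were therefore treated as pairs. Gli1+ replicate 1 correlated slightly more with Gli1- replicate 3 (0.274) than with Gli1- replicate 1 (0.223). For that library the correlations thus do not single out the pair, and results by pair depend on the numbering. No source says that a number marks a mouse, and the fit without the block was kept as the main one. Where replicates shared a source, p-values measure only the spread between these libraries. Promoters came from the RefSeq table for GRCm38.p6. Figures were drawn with matplotlib 3.10.9 in Python 3.11.15.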

Additional observations from a re-analysis of the deposited data

How the results depend on the processing

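Without the block, the number of genes called over all genes was 0 by edgeR, 267 without a filter and 16 by DESeq2, and with the replicate block it was 0 by edgeR, 424 by DESeq2, 725 by DESeq2 without replicate 1 and 211 by edgeR without a filter. Of the mineralization genes, 1 (*Mgp*) was called in each of those last 3 fits and 0 in the other alternatives run, each library left out included. Among those others, DESeq2 without the block gave *Mgp* no p-value and so could not call it. Of the pathway lists, 1 gene was called without a filter, 3 by DESeq2 with the block, 7 when replicate 1 was also left out and 3 without a filter with the block. *Mgp* with the block and no filter had a log2FC of -1.94 (edgeR, adjusted p = 0.0412). The replicate block changed the call of no other mineralization gene.

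The log2FC of *Alpl* turned positive with limma-voom (0.033), without Gli1+ replicate 3 (0.15) and without Gli1- replicate 2 (0.45), that of *Ibsp* without Gli1+ replicate 3 (0.26) and without Gli1- replicate 2 (0.49), that of *Spp1* without Gli1- replicate 2 (0.22), and that of *Phex* by DESeq2 with the block and no replicate 1 (0.50). Their causes were not tested. Leaving out each library gave -0.49 to 0.45 for *Alpl*, -0.62 to 0.49 for *Ibsp*, -1.45 to 0.22 for *Spp1*, 0.48 to 1.11 for *Enpp1*, -0.60 to -0.35 for *Ank* and -3.30 to -0.37 for *Mgp*. The directions of *Enpp1*, *Ank* and *Mgp* held in each of 18 alternatives. Depth limits *Bglap*, *Phex*, *Phospho1* and *Dmp1*, where 3 counts or fewer were taken as the floor.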

Other observations

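Among genes of the lists that the comparison of mineralization genes does not use, *Pdgfra*, a receptor of fibroblasts and perichondrial cells, was at 85.5, 82.0 and 43.1 CPM in Gli1+ and 206, 355 and 264 CPM in Gli1- replicates 1, 2 and 3. Its populations did not overlap (log2FC -1.97, SE 0.46, edgeR, unadjusted p = 0.00249), and it was called lower in Gli1+ cells by DESeq2 with the replicate block (adjusted p = 6.0e-05), while edgeR with the block did not (adjusted p = 0.336). *Cnn1*, calponin of smooth muscle, was at 4.76, 9.33 and 2.05 CPM in Gli1+ and 0.103, 2.12 and 0.582 CPM in Gli1- replicates 1, 2 and 3, with the Gli1+ library above in 3 of 3 pairs (log2FC 2.53, SE 1.09, edgeR, unadjusted p = 0.0486; DESeq2 with the block, adjusted p = 0.033; edgeR with the block, adjusted p = 0.481). The 6 markers of smooth muscle and pericytes were split, 3 with a positive and 3 with a negative log2FC. *Myh11* (log2FC -2.71, edgeR, unadjusted p = 0.0625) and *Rgs5* (log2FC -1.70, edgeR, unadjusted p = 0.111), named after their values were seen, were lower in Gli1+ cells without overlap, and neither was called. *Myh11* held 0, 6 and 3 counts in Gli1+ and 15, 19 and 28 in Gli1- replicates 1, 2 and 3. Like *Abcc6*, it passed the filter through its Gli1- libraries.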
